A study of Mus musculus with 2 samples.

Results

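The glutathione and NRF2 antioxidant genes are 10 genes, taken by name from the platform annotation with older synonyms accepted: Nfe2l2, Gclc, Gclm, Gss, Gsr, Txnrd1, Hmox1, Nqo1, Sod2 and Cat. Each of the 10 was represented by exactly 1 probe under its current symbol, and all 10 had a ratio on both arrays, among 16390 named genes of which 10434 had a ratio at day 1 and 11404 at day 3. Their RNA was compared in stromal cells of C57BL/6 mouse bone marrow on 2 arrays with 2 channels each. The first array set cells taken 1 day after total body irradiation with 9.5 Gy against cells of unirradiated mice, and the second did so for cells taken 3 days after the same dose. Unirradiated RNA carried Cy5 and irradiated RNA Cy3 on both arrays, without a dye swap. The series gives 6 mice, without saying how they were divided or pooled; age and the method of separating stroma from other marrow cells are not given in the sources used here.

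Every value below is a log ratio of the 2 channels, read as log2, with the median over genes set to 0 on each array, so that 1 stands for 2-fold. A gene is called when its ratio is 2-fold or more in size. There was 1 array per time point, so no value has a replicate error and no test of irradiation was possible. The labels do not name the numerator, and their word order would put unirradiated RNA on top. The sign was read as irradiated over unirradiated because p53 targets, which radiation is known to induce, had medians of 1.54 and 1.51 on the day 1 and day 3 arrays. Mitotic genes had medians of 0.88 and -3.17. Cdkn1a stood at 2.23 and 1.90, and Mdm2 at 2.26 and 1.06. This direction is likely and not established: with the opposite numerator, all directions given here would be turned round. A dye bias of a probe would enter both arrays alike and was not measured.

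NRF2, the product of Nfe2l2, is the transcription factor that sets the level of many antioxidant enzymes. In unstressed cells KEAP1 presents it to a cullin ubiquitin ligase for destruction; oxidants and electrophiles modify KEAP1, NRF2 accumulates, pairs with a small MAF protein and binds antioxidant response elements, where BACH1 otherwise represses. Its classical targets make glutathione from cysteine, glutamate and glycine, return oxidised glutathione and thioredoxin to the reduced state at the expense of NADPH, break down haem and reduce quinones. Ionising radiation produces reactive oxygen species in marrow, where these enzymes are at work in blood-forming and stromal cells alike.

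The members went in opposite directions 1 day after irradiation. The reductases Gsr and Txnrd1, the haem oxygenase Hmox1 and Nfe2l2 were at least 2-fold higher. The glutathione synthesis genes Gclc and Gss and the quinone reductase Nqo1 were at least 2-fold lower, of which Gss alone kept its call with ribosomal protein genes set to 0. The synthesis gene Gclm (-0.51), Sod2 and Cat were within 2-fold. Of the 10 members, 4 were at least 2-fold higher, where 19.6% of all genes on that array were, and 3 were at least 2-fold lower, where 11.1% of all genes were. The shares among members, 40.0% and 30.0%, were above these, but rest on 10 genes and 1 array. The median of the members was -0.04 at day 1, close to the 0.00 of all genes. By day 3 only Hmox1 was at least 2-fold higher, 1 of 10 against 7.35% of all genes, and none was at least 2-fold lower, against 6.85% of all genes. These day 3 shares are near the background and are no result about the members as a group.

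**Figure D1:**
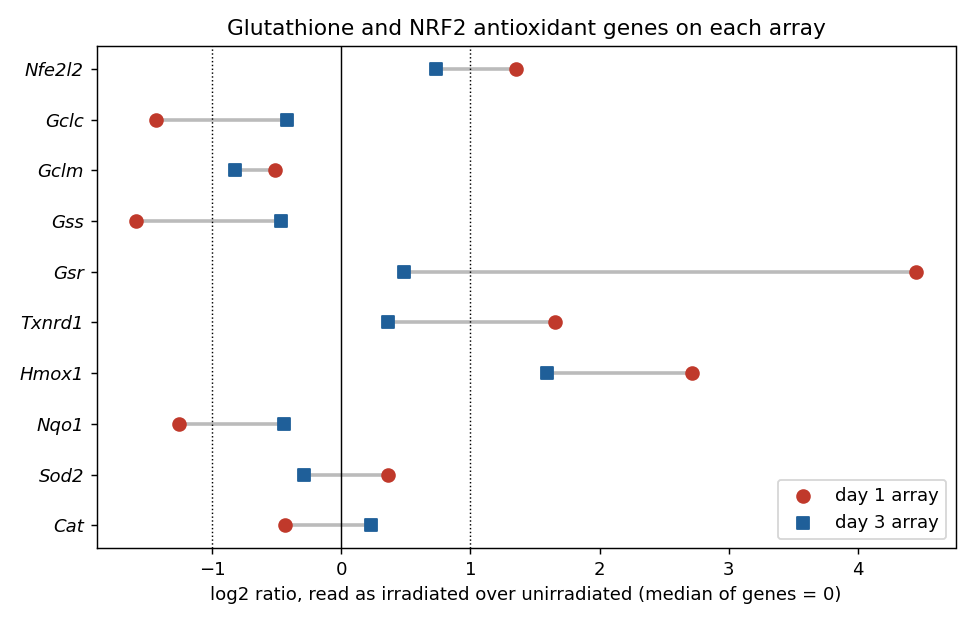
Log2 ratios of the 10 genes (x axis, read as irradiated over unirradiated) on the day 1 array (red circles) and the day 3 array (blue squares), 1 value per array, joined by a grey line for each gene; dotted lines mark 2-fold. Gsr spans the widest interval, from 4.45 to 0.49, and Gclc, Gclm, Gss and Nqo1 lie left of 0 on both arrays.

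Nfe2l2 had a log2 ratio of 1.35 at day 1 and 0.73 at day 3. It was 2.55-fold higher at day 1 and within 2-fold at day 3, although its rank among all genes hardly moved, with 85.9% of genes below it at day 1 and 86.8% at day 3. Setting ribosomal protein genes to 0 in place of the median gene, which shifts all genes by 0.51 at day 1 and 0.54 at day 3, put Nfe2l2 at 1.27 at day 3 and so past 2-fold. Since NRF2 is controlled mainly through the stability of the protein, its RNA level is only part of its activity.

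The genes that hold NRF2 back, Keap1 and Bach1, had unlike values. Keap1, the sensor that delivers NRF2 for degradation, stood at -0.30 at day 1 and -0.05 at day 3. Bach1, the repressor that competes for the same DNA sites, stood at 1.90 and 1.05, at least 2-fold higher on both arrays. Among the partner and turnover genes, Mafg, a small MAF protein, was at 2.21 and 0.78, and Rbx1, the RING subunit of the ligase, at -0.18 and 0.26. Of the 9 measured genes of the NRF2 regulator list, 4 passed 2-fold upward and none downward at day 1, and 1 upward and none downward at day 3, with medians of 0.30 and 0.62. Over all genes 19.6% and 11.1% passed upward and downward at day 1 and 7.35% and 6.85% at day 3, so 1 of 9 at day 3 is near the background. The genes called at day 1 beside Bach1 and Mafg were Cul3 (1.67), the scaffold of the ligase, and Mafk (1.03), another small MAF protein, both named after their values were seen.

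Proximal promoters were examined for Nfe2l2 and its targets, because the antioxidant response element is the DNA site through which NRF2 acts. RefSeq windows on GRCm38.p6, from 250 bases before to 50 bases after a start site, were held for 7 of the 10 members, in 9 windows. No window was held for Hmox1, Gsr or Gclc, so their promoters were not examined. The core of the element, TGACNNNGC on either strand, was found in 3 of the 9 windows, 1 each of Nfe2l2, Gclm and Txnrd1, against 12.4% of 32851 promoter windows of all genes and 17.4% of the 121 windows of the wider pathway genes. Shown here are those 3 and the window of Nqo1, which holds no such core but a TATA box (TATAAA), so that 2 members higher at day 1, 1 within 2-fold and 1 lower can be set side by side. The core is in capitals, and all 4 are written 5′ to 3′ along the gene.
Nfe2l2, chr2:75704614-75704913, minus strand: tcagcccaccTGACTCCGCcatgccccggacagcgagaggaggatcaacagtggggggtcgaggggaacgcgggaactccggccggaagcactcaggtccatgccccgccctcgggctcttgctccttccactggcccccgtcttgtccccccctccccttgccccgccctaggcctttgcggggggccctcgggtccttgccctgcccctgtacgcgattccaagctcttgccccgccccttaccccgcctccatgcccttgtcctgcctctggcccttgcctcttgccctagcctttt
Txnrd1, chr10:82858956-82859255, plus strand: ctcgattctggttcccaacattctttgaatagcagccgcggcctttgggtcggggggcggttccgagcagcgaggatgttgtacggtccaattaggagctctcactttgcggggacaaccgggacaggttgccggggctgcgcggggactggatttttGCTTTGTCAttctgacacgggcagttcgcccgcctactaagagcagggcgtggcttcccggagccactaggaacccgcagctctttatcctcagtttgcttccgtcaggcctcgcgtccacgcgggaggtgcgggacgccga
Gclm, chr3:122245307-122245606, plus strand: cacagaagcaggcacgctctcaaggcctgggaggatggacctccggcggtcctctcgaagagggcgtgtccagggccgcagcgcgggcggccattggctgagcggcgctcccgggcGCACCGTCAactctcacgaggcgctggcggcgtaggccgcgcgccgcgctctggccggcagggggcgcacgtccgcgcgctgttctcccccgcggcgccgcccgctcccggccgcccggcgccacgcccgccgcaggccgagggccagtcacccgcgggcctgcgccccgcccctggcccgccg
Nqo1, chr8:107403156-107403455, minus strand: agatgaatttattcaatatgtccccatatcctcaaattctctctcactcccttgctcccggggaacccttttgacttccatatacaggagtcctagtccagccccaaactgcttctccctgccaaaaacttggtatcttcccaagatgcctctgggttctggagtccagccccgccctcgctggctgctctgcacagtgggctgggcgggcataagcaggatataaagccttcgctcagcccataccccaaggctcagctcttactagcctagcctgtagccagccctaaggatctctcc
The core lies 240 to 232 bases before the start in Nfe2l2, 134 to 126 before it in Gclm and 92 to 84 before it in Txnrd1, on the gene's own strand in Nfe2l2 and on the other strand in the latter pair. No core overlapped a GC box (GGGCGG on either strand), which was in 7 of the 9 member windows, against 35.7% of all windows and 60.3% of the wider pathway windows. The Gclm window was the richest in G and C, at 79.7%, and the Nqo1 window had 53.7%, against a median of 52.7% over all windows. A window with the core thus occurred in genes above 0 (Nfe2l2, Txnrd1) and below 0 (Gclm) on both arrays. The windows at the other 2 starts of Txnrd1 hold no core, and sequence beyond the windows was not searched.

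Of the 3 genes that make glutathione, Gclc and Gss were at least 2-fold lower at day 1 and Gclm was within 2-fold. Gclc, the catalytic subunit of glutamate-cysteine ligase and the rate-limiting step, stood at -1.43 at day 1 and -0.42 at day 3. It was 2.70-fold lower at day 1, with 4.36% of genes below it, and within 2-fold at day 3. Gss, glutathione synthetase, which adds glycine in the last step, stood at -1.59 and -0.47, and was 3.01-fold lower at day 1, the lowest of the 10 members. Gclm, the modifier subunit that raises the affinity of the ligase for its substrates, stood at -0.51 and -0.82, within 2-fold on both arrays. Of the ligase subunits, Gclc was the lower by 0.92 at day 1 and Gclm the lower by 0.40 at day 3. Each difference was smaller than the SD that the spread between probes of 1 gene gives a difference of 2 probes (1.07 and 0.82).

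All 6 values of the synthesis genes lay below 0 with the median gene at 0. With ribosomal protein genes at 0, Gss (-1.08) stayed at least 2-fold lower at day 1, Gclc (-0.92) did not, Gclm came to 0.0002, and at day 3 Gclc (0.12) and Gss (0.07) turned positive while Gclm (-0.28) did not. Relative to the median gene, the 3 genes were below 0 on both arrays. At day 3 Gclc and Gss were not below ribosomal protein genes. In size, Gclm at day 1 (-0.51) and Gclc (-0.42) and Gss (-0.47) at day 3 were under the pooled SD between probes of 1 gene. That SD was 0.76 at day 1 and 0.58 at day 3.

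Of the enzymes that reduce what has been oxidised, Gsr stood furthest out. Gsr, glutathione reductase, which uses NADPH to turn glutathione disulfide back into glutathione, had a log2 ratio of 4.45 at day 1 and 0.49 at day 3. It was 21.9-fold higher at day 1, with 1.83% of all genes above it, and within 2-fold at day 3 (past it, at 1.03, with ribosomal protein genes at 0). Txnrd1, the cytosolic thioredoxin reductase, a selenoprotein that does the same for thioredoxin, stood at 1.66 and 0.36, that is 3.16-fold higher at day 1 and within 2-fold at day 3. On the day 1 array the ratio of Gsr exceeded that of Gclc by 5.89 and that of Gss by 6.04, differences that no centring of the array can change. At day 3 the same differences were 0.91 and 0.96.

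The cells on the day 1 array also differed in blood cell markers. Granulocyte markers were at least 2-fold higher in 15 of 15 measured genes (median 5.89, range 4.07 to 8.28), pan-leukocyte markers in 11 of 11 (median 5.13, range 4.36 to 8.17) and macrophage markers in 6 of 11 (median 2.23, range -0.43 to 6.17), while erythroid markers were at least 2-fold lower in 8 of 9 (median -3.18, range -5.77 to -0.68). At day 3 the medians were -1.49 for granulocyte (range -3.19 to 1.99), -0.34 for pan-leukocyte (range -3.09 to 0.56), 0.82 for macrophage (range -0.20 to 1.49) and -1.93 for erythroid markers (range -6.73 to -0.56). Mesenchymal stromal markers had medians of -0.98 and -0.04, endothelial markers of 0.46 and 1.75 and adipocyte markers of 0.57 and 1.84. Gsr, Txnrd1 and Hmox1 were higher on the array on which leukocyte markers were high, and the part of those cells in their ratios was not tested. Gclc, Gss and Nqo1 were lower on the same array, on which mesenchymal stromal and erythroid markers had medians below 0. The part of those cells in the ratios of Gclc, Gss and Nqo1 was not tested either. In RNA from a mixed preparation, fewer cells of a type and less RNA per cell cannot be told apart. The values are ratios, so a marker that is absent from both channels cannot be read from them.

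Hmox1, the inducible haem oxygenase, which opens the haem ring and releases iron, carbon monoxide and biliverdin, was the 1 member at least 2-fold higher on both arrays. Its log2 ratio was 2.72 at day 1 and 1.59 at day 3, or 6.59-fold and 3.02-fold. Although the ratio was smaller at day 3, its rank was not, with 4.50% of genes above it at day 1 and 2.17% at day 3. It exceeded the ratio of every other member at day 3, the next being Nfe2l2, 0.86 lower. Both calls held under all 7 other ways of centring the arrays and combining probes and symbols, with ranges of 2.71 to 3.23 at day 1 and 1.58 to 2.13 at day 3. Medians were above 0 on both arrays for macrophage (2.23 and 0.82), endothelial (0.46 and 1.75) and adipocyte markers (0.57 and 1.84). The part of those cells in the Hmox1 ratios was not tested.

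Genes downstream of haem oxygenase split. Slc40a1, ferroportin, which exports iron, stood at 1.90 at day 1 and 1.31 at day 3, at least 2-fold higher on both arrays. The ferritin chains that store iron, Fth1 and Ftl1, stood at 1.07 and 1.05 at day 1 and at 0.01 and 0.37 at day 3. Of the biliverdin reductases, Blvra was near 0 (0.03 and -0.30) and Blvrb, an enzyme abundant in red cells, was at -2.37 and -2.25. Of the 6 listed genes of haem breakdown and iron storage, 3 were at least 2-fold higher and 1 lower at day 1, and 1 higher and 1 lower at day 3, where the shares of all genes higher and lower were 19.6% and 11.1% at day 1 and 7.35% and 6.85% at day 3. Erythroid markers were low on both arrays, and their part in the Blvrb value was not tested. Macrophage, endothelial and adipocyte markers had medians above 0 on both arrays, and the part of those cells in the Slc40a1 values was not tested.

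Nqo1, the quinone reductase that is often taken as the reporter of NRF2 activity, did not go with Hmox1. It stood at -1.26 at day 1, 2.39-fold lower, and at -0.44 at day 3, within 2-fold. With ribosomal protein genes at 0 it was at -0.75 and 0.10, so that the call at day 1 ended. The ratio of Hmox1 exceeded that of Nqo1 by 3.98 at day 1 and by 2.04 at day 3. Among the 10 genes measured for quinone and carbonyl detoxification, those past 2-fold were 3 higher and none lower at day 1, and 1 higher and none lower at day 3. Of all genes, 19.6% were higher and 11.1% lower at day 1, and 7.35% and 6.85% at day 3. The counts higher are near this background. Akr1c13, an aldo-keto reductase, was at 1.20 and 0.98, Ephx1, the microsomal epoxide hydrolase, at 0.64 and 1.93, and the carbonyl reductases Cbr1 and Cbr3 at -0.93 and -0.92 at day 1 and at -0.14 and 0.01 at day 3. The other genes called at day 1 were Ptgr1 (1.72) and Nqo2 (1.11), named after their values were seen.

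The members that remove superoxide or hydrogen peroxide directly, Sod2 and Cat, stayed within 2-fold. Sod2, the mitochondrial manganese superoxide dismutase, stood at 0.36 at day 1 and -0.29 at day 3. Cat, catalase of the peroxisome, stood at -0.44 and 0.23. The sign of each differed between the arrays, but with ribosomal protein genes at 0 all 4 values were positive (0.87 and 0.25 for Sod2, 0.07 and 0.77 for Cat). The only spread that could be measured, between different probes of 1 gene on an array, had a pooled SD of 0.76 (85 genes, day 1) and 0.58 (116 genes, day 3). All 4 values of Sod2 and Cat were smaller than that with the median gene at 0. With ribosomal protein genes at 0, Sod2 at day 1 (0.87) and Cat at day 3 (0.77) were larger than that. Sod1, the cytosolic copper-zinc enzyme, stood at -1.12 and -0.35, and Ccs, its copper chaperone, at -0.37 and -0.13.

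**Figure D2:**
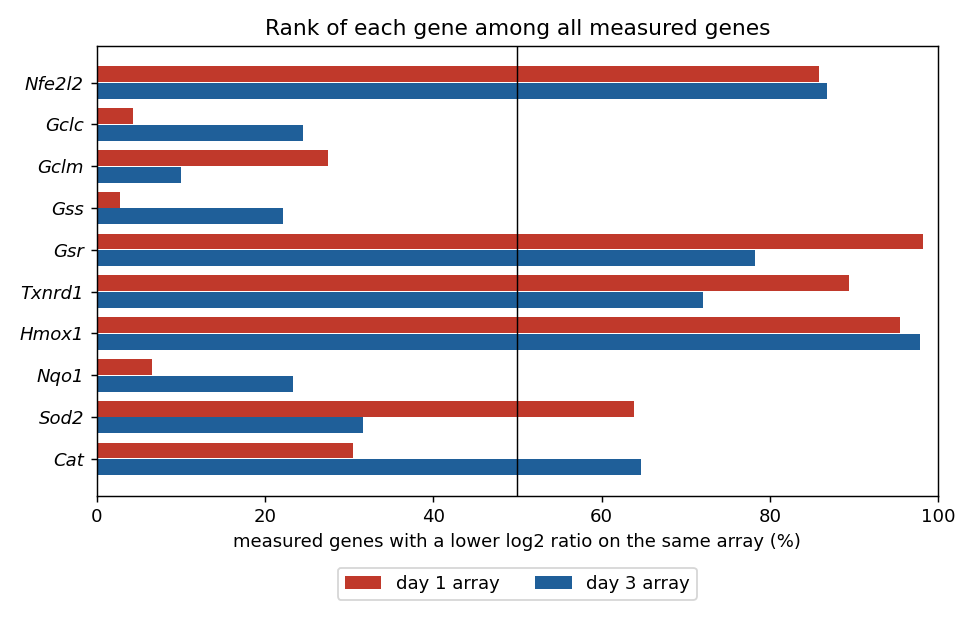
Share of all genes measured on the same array with a lower log2 ratio than the named gene (x axis, percent), for the day 1 array (red bars) and the day 3 array (blue bars); the vertical line marks the median gene. Hmox1 lies above 95.5% of genes at day 1 and 97.8% at day 3, while Gss moves from 2.83% to 22.1%.

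The order of the members at day 1, from the highest, was Gsr, Hmox1, Txnrd1, Nfe2l2, Sod2, Cat, Gclm, Nqo1, Gclc and Gss. At day 3 it was Hmox1, Nfe2l2, Gsr, Txnrd1, Cat, Sod2, Gclc, Nqo1, Gss and Gclm. Of neighbours in these orders, only Gsr and Hmox1 at day 1 (1.73 apart) and Hmox1 and Nfe2l2 at day 3 (0.86 apart) differed by more than the SD that the spread between probes gives a difference of 2 probes, 1.07 at day 1 and 0.82 at day 3. At day 3 Gclc, Nqo1 and Gss lay within 0.05 of each other. Over the 10 members the SD of the log2 ratio was 1.99 on the day 1 array and 0.73 on the day 3 array; over the 9800 genes measured on both it was 1.23 and 0.73.

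Of the 10 members, 5 had ratios at least 2-fold apart between the arrays. The log2 ratio at day 3 minus that at day 1 was -3.96 for Gsr, -1.30 for Txnrd1 and -1.13 for Hmox1, at least 2-fold lower in 3 of 10 members, against 16.8% of all genes. It was 1.13 for Gss and 1.02 for Gclc, at least 2-fold higher in 2 of 10 members, against 12.1% of all genes. The remaining differences were 0.81 for Nqo1, 0.67 for Cat, -0.31 for Gclm, -0.62 for Nfe2l2 and -0.65 for Sod2. Both arrays were set against unirradiated RNA that may be the same extract, and the difference carries the error of both arrays. With the density peak at 0 the differences of Gss (0.93) and Gclc (0.82) came under 2-fold.

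The wider pathway was described through 10 lists of 99 genes by role, of which 77 had a ratio at day 1 and 79 at day 3. At day 1, 19 of them (24.7%) passed 2-fold upward and 11 (14.3%) downward, and at day 3, 7 (8.86%) and 5 (6.33%). These shares lay close to those of all genes given above, so the pathway as a whole did not stand apart by count. The median was -0.18 at day 1, which became 0.01 with the density peak at 0 and 0.33 with ribosomal protein genes at 0, and 0.08 at day 3.

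**Figure D3:**
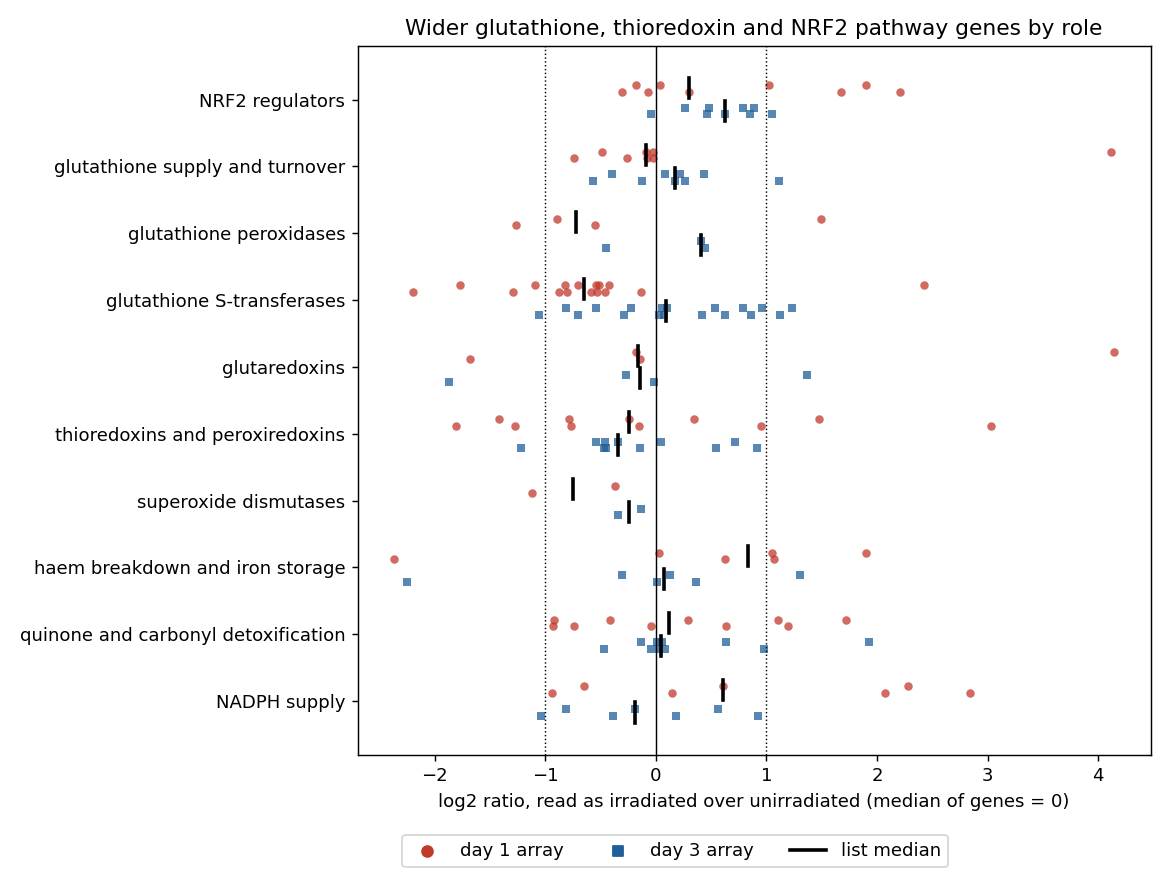
Log2 ratios of the wider pathway genes (x axis) by role (rows), with the day 1 array in red circles and the day 3 array in blue squares, 1 point per gene; black bars mark the list medians and dotted lines 2-fold. Glutathione S-transferases lie mostly left of 0 at day 1 (median -0.65) and on both sides at day 3 (median 0.09), and the rightmost points at day 1 belong to Glrx (4.15) and Ggt1 (4.12).

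Glutathione S-transferases, which join glutathione to electrophiles, lay below 0 in 15 of 16 measured genes at day 1 (12 of 16 with ribosomal protein genes at 0) and in 6 of 18 at day 3. Past 2-fold at day 1 were 4 lower (2 with ribosomal protein genes at 0) and 1 higher, against 11.1% and 19.6% of all genes. Mesenchymal stromal markers were below 0 in 12 of 13 genes at day 1 (median -0.98, 6 at least 2-fold lower) and had a median of -0.04 at day 3, beside transferase medians of -0.65 and 0.09, and the part of stromal cell share in the transferase values was not tested. Mgst3, a microsomal member, was the lowest at -2.19 and -1.06, and Gstm5 stood at -1.77 and -0.81. Mgst1, also microsomal, was the exception at 2.42 and 0.86. Gstm4 had a ratio only at day 3, of 1.12. Probes of this family of similar genes may not tell its members apart.

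Glutathione is also used by peroxidases and glutaredoxins. Of the peroxidases, Gpx7 was at -1.26 and -0.45, Gpx3, the secreted plasma form, at -0.89 and 0.41, Gpx8 at -0.55 and 0.45, and Gpx6 was 2.82-fold higher at day 1 with no ratio at day 3. No probe was named for Gpx4 here. Of 4 glutaredoxins, Glrx, the cytosolic enzyme that removes glutathione from proteins, was at 4.15 and 1.37, at least 2-fold higher on both arrays. Glrx5, a mitochondrial protein of iron-sulfur cluster assembly that erythroid haem synthesis needs, was at -1.68 and -1.87, at least 2-fold lower on both. Glrx2 (-0.18 and -0.27) and Glrx3 (-0.14 and -0.02) were near 0. Glrx thus had a ratio beside that of Gsr at day 1, on the array with high leukocyte markers, and Glrx5 was low on both arrays, as erythroid markers were; neither relation was tested.

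Of the genes of glutathione supply and breakdown outside the ligase steps, 1 was at least 2-fold higher on each array and none lower. Slc7a11, the cystine carrier and a known NRF2 target, was at 1.11 at day 3 and had no ratio at day 1. Ggt1, which cleaves glutathione at the cell surface, was at 4.12 at day 1 and had no ratio at day 3. Chac1, which degrades glutathione within the cell, was at -0.74 and -0.57, and Ggt5 at -0.03 and -0.39. No other gene of the 8 measured at day 1 and 9 at day 3 passed 2-fold. Of all genes, 19.6% were higher and 11.1% lower at day 1, and 7.35% and 6.85% at day 3. The counts higher are near this background and are no result about the list.

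Of 11 genes of the thioredoxin and peroxiredoxin list, 2 were at least 2-fold higher and 3 lower at day 1, against 19.6% and 11.1% of all genes, and none higher and 1 lower at day 3, against 7.35% and 6.85%. The count higher at day 1 is near the background. Txn1, thioredoxin, the substrate of Txnrd1, was at 0.95 and 0.55, just within 2-fold, and 1.46 and 1.09 with ribosomal protein genes at 0. Prdx5 was at 3.03 and 0.05. Prdx2, the abundant peroxiredoxin of red cells, was at -1.80 and -1.22, and Txnrd3 at -1.42 and -0.46. Prdx1 stood at -0.77 and -0.47, and Srxn1, sulfiredoxin, which repairs overoxidised peroxiredoxins and is a known NRF2 target, at -0.15 and 0.92. The remaining called genes at day 1, named after their values were seen, were Prdx6 (1.48) and Prdx4 (-1.27).

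Both reductases, Gsr and Txnrd1, draw on NADPH. Of 7 measured genes of the NADPH supply list, 3 passed 2-fold upward and none downward at day 1, against 19.6% and 11.1% of all genes. They were Pgd (2.84), the 6-phosphogluconate dehydrogenase, which makes NADPH in the pentose phosphate pathway, and, named after their values were seen, Taldo1 (2.28) and Tkt (2.08), enzymes of the same pathway's non-oxidative branch, which makes none. No probe was named for G6pdx, the other NADPH-making enzyme of that pathway, here. At day 3 Pgd was at 0.18, Taldo1 at -0.81 and Tkt at -1.04, the last at least 2-fold lower, 1 of 7 against 6.85% of all genes. The other suppliers named stayed within 2-fold: malic enzyme Me1 at -0.94 and -0.18, and the isocitrate dehydrogenases Idh1 at 0.61 and 0.93 and Idh2 at -0.65 and -0.38. Pgd, Taldo1, Tkt and Gsr were high on the array on which granulocyte and pan-leukocyte markers were high, and the part of those cells was not tested.

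The choice of the zero line decided some of the calls. Relative to the median of all genes, ribosomal protein genes lay at -0.51 at day 1 and -0.54 at day 3, and the peak of the density of all genes at -0.19 and -0.0020. With ribosomal protein genes at 0, 31.8% of all genes passed 2-fold upward and 3.57% downward at day 1, and 23.1% and 2.41% at day 3. Under that centring the members past 2-fold were 4 higher and 1 lower at day 1, and 3 higher with none lower at day 3. The members called under every centring tried were Gsr, Hmox1, Txnrd1, Nfe2l2 and Gss at day 1 and Hmox1 at day 3.

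**Figure D4:**
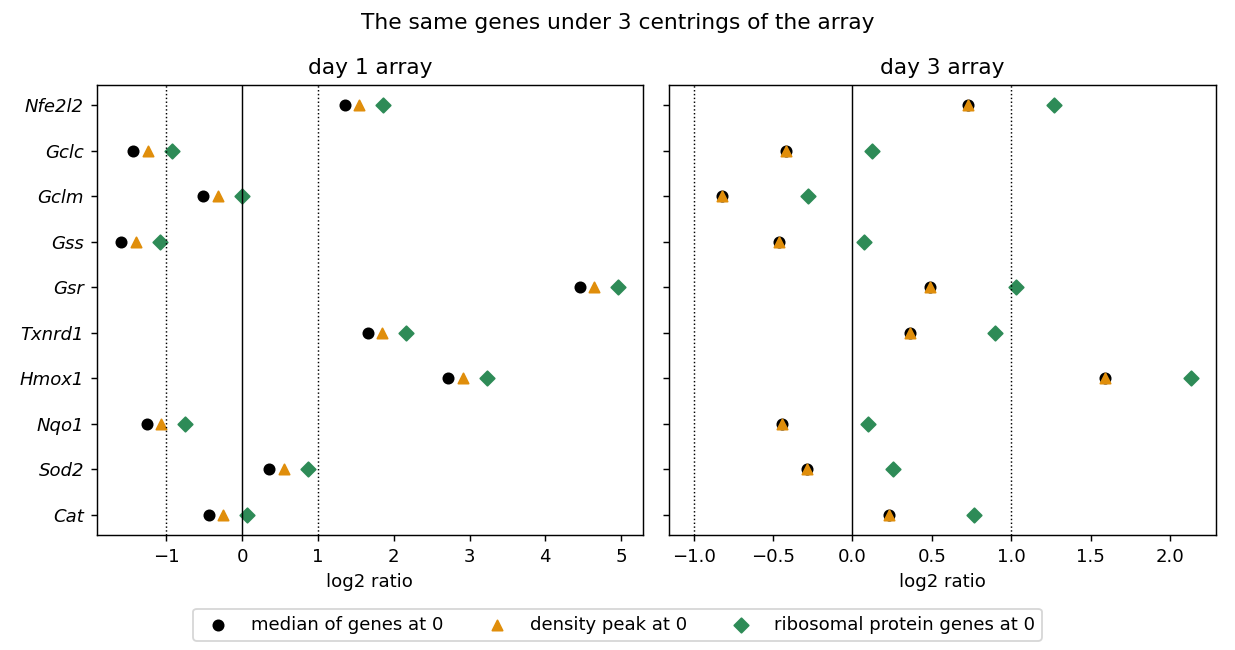
Log2 ratios of the 10 genes (x axes, which differ in range between the panels) on the day 1 array (left) and the day 3 array (right) under 3 centrings: median of genes (black circles), density peak (orange triangles) and ribosomal protein genes (green diamonds) at 0; dotted lines mark 2-fold. At day 1 Gclc (-0.92) and Nqo1 (-0.75) come inside 2-fold in the green centring, and at day 3 Gsr (1.03) and Nfe2l2 (1.27) go past it.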

How the data were processed

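Total RNA of irradiated and unirradiated mouse bone marrow stromal cells was amplified to amino allyl RNA, coupled to Cy3 and Cy5 and hybridised to arrays, per the labels. The values the authors deposited are log ratios per probe, already centred (medians 0.0003 and -0.0001) and read here as log2. The base of the logarithm, numerator, scanner, background correction, normalisation and filter are not given in the sources used here. Of 23473 probes, 40.5% (day 1) and 34.3% (day 3) lacked a ratio. Without intensities, signal over background is unknown; the number of arrays, 2, limits the precision.

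In the platform annotation 16631 probes had 1 symbol, none had several and 6842 were unnamed; 3947 older symbols were updated through RefSeq genes (GRCm38.p6). Probes were averaged per gene and each array's gene median was subtracted (Python 3.11.15, pandas 2.3.3). The calculation was tested on simulated data. Alternatives concerned centring, probes, symbols and the threshold.

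The members and lists were chosen with earlier results of these data known. Named were all 10 members, in each role list the 2 genes with the highest and the 2 with the lowest average over their arrays, and Keap1, Bach1, Slc7a11, Gpx4, Txn1, Prdx1, Srxn1, Sod1, Blvrb, Fth1, Cdkn1a and Mdm2. Promoters are RefSeq's. No replicates were compared and no p-value was computed.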

Additional observations from a re-analysis of the deposited data

Results flagged for a closer look

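Values of opposite sign on the 2 arrays are given here as the day 3 value minus the day 1 value (log2). With 1 array per time point none of these differences was tested. Among members they were -0.65 for Sod2 and 0.67 for Cat. Among other named genes they were 1.30 for Gpx3, 1.07 for Srxn1, 1.00 for Gpx8, 0.94 for Cbr3, 0.44 for Rbx1 and -0.33 for Blvra. Among list medians they were 1.13 for glutathione peroxidases, 0.73 for glutathione S-transferases, 0.26 for glutathione supply and turnover, 0.25 for all wider pathway genes and -0.79 for NADPH supply. Except for NADPH supply, the list medians at each time rest on partly different genes, because some had a ratio on 1 array only. In the NADPH supply list the same 7 genes were measured on both arrays. The median of their differences was 0.27, opposite in sign to -0.79, with 4 genes above 0 and 3 below.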

How the results depend on the processing

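No paired analysis was possible because there was 1 array per time point, and no array could be left out. Of the 9 alternatives, the values as deposited, the median of probes, the probe with the largest ratio and current symbols alone kept every count of members and wider pathway genes within 1.5 times and every median within the spread between probes.

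With ribosomal protein genes at 0, members at least 2-fold lower at day 1 came to 1 and higher at day 3 to 3, with member medians of 0.47 and 0.51. Wider pathway genes lower came to 5 at day 1 and 2 at day 3 and higher at day 3 to 24, with medians of 0.33 and 0.61. Under that centring 3.57% of all genes were lower at day 1, and 23.1% were higher and 2.41% lower at day 3. With the density peak at 0, the wider median was 0.014 at day 1 and 0.075 for day 3 minus day 1. For that difference members higher came to 0 and wider genes higher to 6, where 8.17% of all genes were higher. Over genes on both arrays, members higher in that difference came to 1, where 11.3% of all genes were higher.

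At a threshold of 1.5-fold, 2 members were higher and 1 lower at day 3, and 4 higher and 5 lower for day 3 minus day 1. Of wider pathway genes, 24 were lower at day 1, 20 higher and 8 lower at day 3, and 24 higher in the difference. At 3-fold, 1 member was lower at day 1, and in the difference 0 were higher and 1 lower. Of wider pathway genes, 12 were higher and 5 lower at day 1, 1 higher and 2 lower at day 3, and 1 higher and 7 lower in the difference. These counts move by the construction of the threshold. The shares of all genes at 1.5-fold and 3-fold were not computed, so these counts have no background to be read against.

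The split of higher against lower calls over all genes also moved. At day 1, 63.9% of called genes were higher, against 76.1% with the density peak and 89.9% with ribosomal protein genes at 0. At day 3 it was 51.8% against 90.5% with ribosomal protein genes at 0, and for day 3 minus day 1 41.8% against 28.3% with the density peak at 0.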
